A study of Ovis aries with 32 samples.

Results

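In the interventricular septum (IVS) of 14-day-old lambs, 18 of the 9001 array probes in the deposited IVS matrix formed a set whose levels rose and fell together with the probe for CLCN6 from one array to the next. The set was found by subtracting from each probe its mean within the Control arrays and within the CORT arrays, and by taking the probes for CLCN6 and LSR and every other probe whose remaining deviations correlated with those of CLCN6 at a Pearson r above 0.8 over the 16 arrays. The set was thus selected on the IVS levels themselves, and the correlations within IVS are given as a description only. The set reached 15 gene symbols on 16 probes, and 2 probes had no symbol.

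Ewes of the CORT group were infused with cortisol at 0.5 mg/kg/day, given overnight from day 115 of gestation until delivery, and Control ewes were untreated. The lambs themselves received no treatment, and at 14 days of age RNA of the IVS and of the left ventricular free wall (LV) was hybridised to a 1-colour sheep oligonucleotide array with 15008 gene probes. Each tissue had 8 Control and 8 CORT lambs, with 1 array per lamb. Lambs of both sexes were used, but the labels do not tie sex to single samples, and genotype was not varied.

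CLCN6 is a chloride/proton exchanger of late endosomes, mainly studied in neurons. LSR is a receptor for triglyceride-rich lipoproteins in liver and an organiser of the corners where epithelial cells meet. An oligonucleotide array measures such transcripts through the hybridisation of labelled RNA to short DNA probes fixed on glass, so the reading of a probe depends on its transcript and also on how its own bases bind.

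Of the other genes in the set, CLASP1 stabilises microtubule ends, TM9SF2 is a membrane protein of the Golgi and endosomes, and LSM14A takes part in storage of untranslated RNA. CXCL1, measured by 2 probes that share 59 of their 60 bases, attracts neutrophils. TSC2 restrains mTOR signalling, GPC1 carries heparan sulfate chains on the cell surface, and NAPSA is an aspartic protease known from lung and kidney. FIZ1 is a zinc finger protein, ATP2A3 a calcium pump of the endoplasmic reticulum, SPHK1 a sphingosine kinase and RNF126 a ubiquitin ligase. C19orf61 is the older symbol of SMG9, a factor of nonsense-mediated RNA decay, and KIAA1826 is a gene named after its cDNA. The set thus held no single family or pathway by name.

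The probe sequences are shown because they carried a feature that the choice of the set did not use. Capitals mark every stretch covered by windows of 10 bases of which 8 or more are C, and the sequences are the 60-base probes as the scanner files give them, 5′ to 3′. The files give no genome position for them. Not every probe of the set is shown. Of those left out, C19orf61, ATP2A3 and A_70_P027986 have no such stretch. The CXCL1 probe A_70_P039396, A_70_P029846, SPHK1 and RNF126 have one.
CLCN6: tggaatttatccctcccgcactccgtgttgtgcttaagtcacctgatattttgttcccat
LSR: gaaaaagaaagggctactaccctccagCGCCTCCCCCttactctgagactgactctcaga
CLASP1: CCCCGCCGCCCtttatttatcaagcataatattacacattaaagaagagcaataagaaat
TM9SF2: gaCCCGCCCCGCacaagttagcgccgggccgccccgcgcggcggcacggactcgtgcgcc
LSM14A: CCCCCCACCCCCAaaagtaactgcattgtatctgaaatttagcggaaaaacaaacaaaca
KIAA1826: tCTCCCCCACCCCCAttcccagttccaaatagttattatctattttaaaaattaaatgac
CXCL1, probe A_70_P039397: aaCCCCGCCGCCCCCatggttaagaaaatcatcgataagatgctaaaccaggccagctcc
TSC2: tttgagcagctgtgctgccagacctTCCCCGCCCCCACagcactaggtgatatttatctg
GPC1: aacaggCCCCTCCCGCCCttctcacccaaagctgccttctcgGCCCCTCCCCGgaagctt
FIZ1: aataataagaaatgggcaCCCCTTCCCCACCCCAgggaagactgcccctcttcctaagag
NAPSA: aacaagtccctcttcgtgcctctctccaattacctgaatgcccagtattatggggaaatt

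Such a C-rich window was present in 13 of the 18 probes (72.2%), against 125 of all 15008 probes on the array (0.833%) and 0.967% of the IVS matrix. The 5 probes without it were those of CLCN6, whose richest window held 7 C, NAPSA, C19orf61, ATP2A3 and A_70_P027986. The window was described after the sequences of the set had been seen, so no test was made of it.

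The same feature on the other strand was not seen in the set. A window of 10 bases with 8 or more G was present in 0 of the 18 probes, against 0.826% of the array. CCCC was present in 15 of 18 probes (83.3%) and in 11.3% of the array, whereas its reverse complement GGGG was present in 2 of 18 (11.1%) and in 11.4%. CCCNCCC was present in 9 of 18 and in 0.88% of the array, and CCCGCC, which lies inside many of the windows, in 7 of 18 and in 0.34%. Their reverse complements GGGNGGG and GGCGGG were in 0 of 18 probes each and in 0.846% and 0.287% of the array. The median GC content was 53.3% in the set and 43.3% on the array, with probes from 35% (CLASP1, KIAA1826) to 81.7% (TM9SF2) within the set. On the array surface, 15 of the 18 spots lay in rows above number 96 of 192, against 49.8% of the IVS matrix.

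Within IVS, the correlation of the other 17 probes with CLCN6 ran from 0.804 (RNF126) to 0.962 (CLASP1), with a median of 0.879. The median over all other probes of the matrix was -0.05, and 18 probes lay below an r of -0.8. TM9SF2 had an r of 0.952, LSM14A of 0.95, KIAA1826 of 0.936 and LSR of 0.925. SPHK1 (0.807) and RNF126 (0.804) were just inside the threshold, and CDK2AP2 (0.7997) and FRK (0.798) fell just below it. The 153 pairs within the set had a median r of 0.845. All of these probes were read on the same 16 arrays, and a factor shared by arrays enters each correlation.

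The levels of CLCN6 show what this co-variation looked like. On the log2 scale of the deposited matrix, CLCN6 in Control IVS was 7.98 at the lowest, 11.74 at the median and 13.28 at the highest, and in CORT IVS it was 11.67, 12.79 and 15.58. Control lambs 8 and 3 were the lowest arrays, and CORT lambs 1 and 2, both on slide 3, were the highest. The groups overlapped between 11.67 and 13.28. LSR ran from 8.88 over a median of 11.37 to 12.57 in Control IVS and from 11.75 over 12.30 to 14.99 in CORT IVS, with the same arrays at both ends.

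The other probes followed those arrays. Control lambs 3 and 8 lay below their group mean for 18 of 18 probes, and between them they were the lowest Control array for all 18, with 9 probes each. Control lambs 4, 5, 6 and 7 lay above the Control mean for 18 of 18 probes. CORT lamb 1 lay above the CORT mean for 18 of 18 and was the highest of all IVS arrays for 16 of them. After centring, 15 of the 18 probes were among the 10% of the IVS matrix that varied most between arrays. The exceptions were SPHK1, RNF126 and A_70_P027986.

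**Figure D1:**
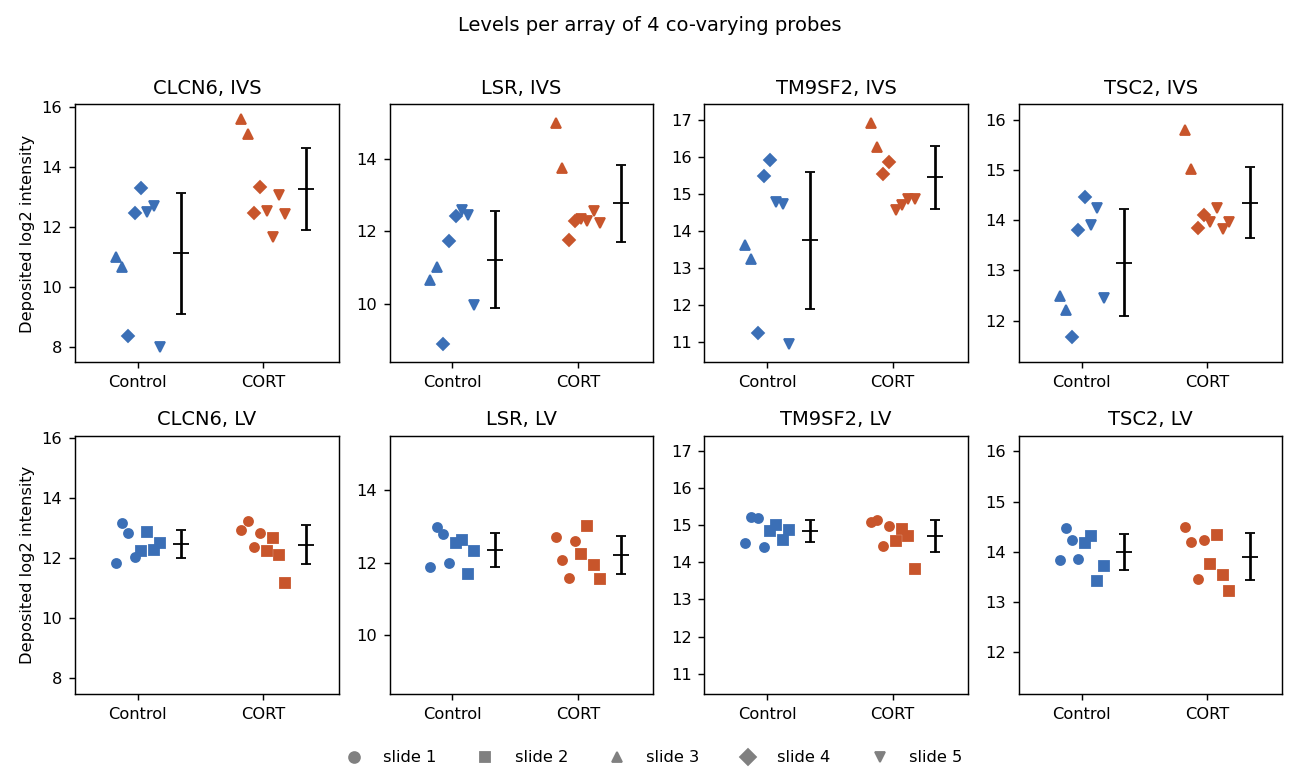
Deposited log2 levels (vertical axis) of CLCN6, LSR, TM9SF2 and TSC2 in each array, by tissue and treatment (horizontal axis), with 8 lambs per group, marker shapes for the array slides, and bars for the mean and SD. For CLCN6 in IVS, Control lambs 8 and 3 lie lowest (7.98 at the bottom) and CORT lambs 1 and 2 highest (15.58 at the top), while the LV values of CLCN6 lie between 11.20 and 13.26.

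**Figure D2:**
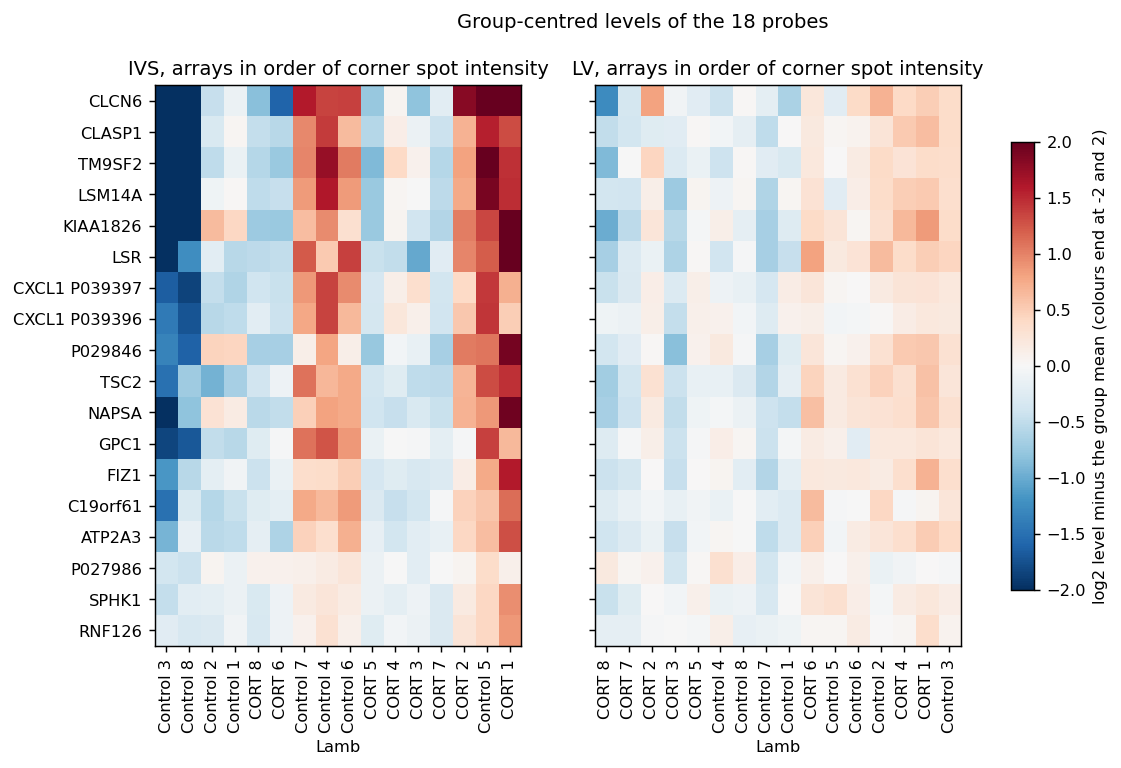
Centred log2 levels of the 18 probes (rows) in each array (columns), with arrays of each tissue ordered by the intensity of the corner control spots over the array median. In IVS the columns at the far left (Control lambs 3 and 8) lie below their group mean in all 18 rows. Those at the far right (CORT lamb 2, Control lamb 5 and CORT lamb 1) lie above it in 17, 18 and 18 rows. The columns between them go both ways, as each column is centred on its own group. In LV, where the amplitude is smaller, 17 of the 18 rows correlate positively with the corner spots.

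The LV matrix, which the choice of the set did not use, held all 18 probes. There the median r of the other 17 probes with CLCN6 was 0.617, and the median over all LV probes was -0.06. An r above 0.5 was found for 14 of 17 probes, against 5.26% of all LV probes, and an r above 0.8 for 2 of 17, against 0.193%. TM9SF2 had the highest LV value (0.944), followed by TSC2 (0.803), NAPSA (0.783) and KIAA1826 (0.743). LSR had an r of 0.696. The lowest were A_70_P027986 (-0.18) and the CXCL1 probe A_70_P039396 (0.325), although the overlapping CXCL1 probe A_70_P039397 had 0.672. The 153 pairs had a median r of 0.752 in LV, with 128 above 0.5.

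The range of the levels was smaller in LV. CLCN6 ran from 11.86 over 12.39 to 13.17 in Control LV and from 11.20 over 12.53 to 13.26 in CORT LV. CORT lamb 8 was the lowest LV array for CLCN6, and the LV groups overlapped over nearly their whole range. The within-group SD of CLCN6 was 2.02 (Control) and 1.37 (CORT) in IVS, against 0.45 and 0.64 in LV. The 2 matrices were normalized separately, so the levels themselves are not set against each other across tissues.

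Maternal cortisol was followed by higher IVS readings across the set before correction for multiple tests. At an unadjusted p under 0.05 by limma, the criterion of the study's methods, 14 of 18 probes were higher in CORT lambs and 0 were lower, against 1.17% of the 9001 IVS probes that were higher at this criterion. After Benjamini-Hochberg adjustment over all 9001 probes, 0 of the 18 and 0 of all probes passed in limma (302 of 9001, or 3.36%, in either direction at an unadjusted p under 0.05). CLCN6 and LSR were chosen with their IVS differences known, and probes that vary together do not give separate tests, so these 14 calls are not 14 independent results. The median CORT minus Control difference of the set was 1.08 log2, and over all IVS probes it was -0.01.

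CLCN6 was 2.15 log2 higher in CORT IVS (SE 0.77, 95% interval 0.52 to 3.77, limma adjusted p = 0.971). LSR was 1.56 higher (SE 0.54, limma adjusted p = 0.971). For the mTOR inhibitor TSC2, Control values ran from 11.66 over 13.16 to 14.46 and CORT values from 13.83 over 14.04 to 15.81, a difference of 1.19 (limma adjusted p = 0.971). The ranges of TSC2 overlapped between 13.83 and 14.46. TM9SF2 ran from 10.95 over 14.17 to 15.91 in Control and from 14.56 over 15.20 to 16.91 in CORT lambs, a difference of 1.70. The next differences were 1.43 for LSM14A, 1.31 for CLASP1, 1.22 and 1.03 for the CXCL1 probes and 1.17 for GPC1.

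The smaller called differences belonged to C19orf61 (0.90), FIZ1 (0.72), ATP2A3 (0.62), RNF126 (0.40) and SPHK1 (0.38). The 4 probes that missed the unadjusted threshold were KIAA1826 (1.12), NAPSA (0.96), A_70_P029846 (0.84) and A_70_P027986 (0.14). KIAA1826 and NAPSA lay just above it (limma unadjusted p = 0.054 and 0.053). Both took their symbols from the study's list of IVS genes, so the study does list them. Seen from the list of higher probes, 14 of the 105 (13.3%) belonged to the set, and these were 77.8% of the set. The C-rich window was present in 16 of the 105 higher probes (15.2%) and in 0 of the 197 lower ones, against 0.967% of the IVS matrix. The window was described from the set, and 5 of these 16 probes lay outside it, so the count largely repeats the set.

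These calls rested on few arrays. With limma's array weights, 0 of 18 probes were called by limma at an unadjusted p under 0.05, where 106 of all 9001 were higher. The median difference was then 0.26, with CLCN6 at 0.57 and LSR at 0.48. These weights come from the spread of each array's own probe levels around the group means, not from the scanner's measures of quality. Without Control lambs 3 and 8, a choice made after seeing the data, 2 of 18 probes were higher at the same threshold (106 of all 9001) and the median difference was 0.54. Without the 4 arrays of slide 3, 0 of 18 were called by limma at that threshold (75 of all 9001 were higher), with a median of 0.64. Within slides, the difference of CLCN6 was 4.50 on slide 3 (2 Control and 2 CORT lambs), 1.52 on slide 4 (3 and 2) and 1.36 on slide 5 (3 and 4). LSR differed by 3.54, 1.00 and 0.69 on these slides. The set was higher in CORT lambs in 18, 17 and 18 of 18 probes, with medians of 2.12, 0.80 and 0.65, where the medians over all probes were -0.04, -0.01 and 0.00.

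No probe of the set passed the same test in LV. At an unadjusted p under 0.05, 0 of 18 probes differed between CORT and Control lambs by limma, against 3.74% of 8807 LV probes, and 0 of 18 passed the adjustment. CLCN6 differed by -0.02 (95% interval -0.55 to 0.51) and LSR by -0.15 (-0.62 to 0.33). A_70_P027986 was the only probe of the set with a positive LV difference (0.17, 95% interval -0.02 to 0.36).

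The difference between tissues was tested on scanner intensities normalized over all 32 arrays together. The CORT effect was larger in IVS than in LV at an unadjusted p under 0.05 for 17 of 18 probes, against 0.951% of 11881 probes. CLCN6 and LSR were chosen with their IVS differences known, and the other probes were chosen to follow CLCN6 in IVS. These 17 calls are therefore not 17 independent results. The IVS and LV arrays also lay on different slides, so a difference between tissues cannot be told from one between slides. None of the 18 passed the adjustment over all probes in limma (lowest adjusted p = 1.00). The IVS minus LV effect was 2.14 for CLCN6 (SE 0.85) and 1.72 for LSR (SE 0.62). The exception was A_70_P027986 (-0.02).

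**Figure D3:**
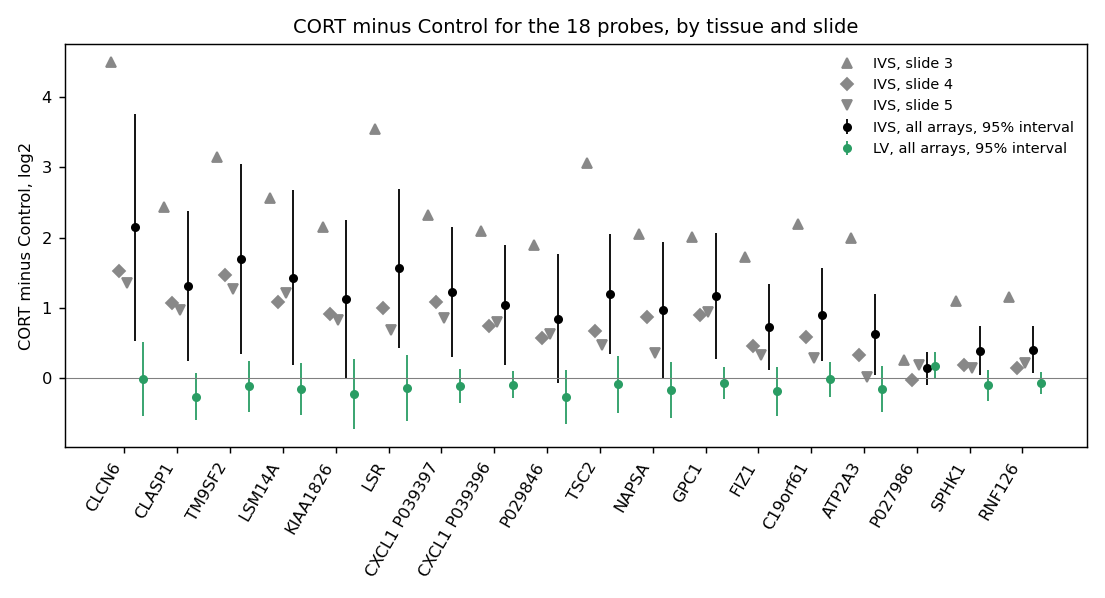
CORT minus Control differences in log2 units (vertical axis) for each of the 18 probes (horizontal axis), with 95% intervals for IVS and LV and single points for each IVS slide. The IVS values run from 0.14 to 2.15 and the LV values from -0.28 to 0.17, and the slide 3 points lie highest for most probes, with CLCN6 at 4.50.

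Slide by itself marked few of these probes. With treatment in the model, 1 of 18 probes (A_70_P029846) differed between the 3 IVS slides after Benjamini-Hochberg adjustment in limma, against 38.0% of the IVS matrix. Between the 2 LV slides, 0 of 18 differed after adjustment, against 0.704%, and 1 of 18 (CLASP1, slide 2 lower by 0.31 log2) at an unadjusted p under 0.05, against 12.3%. For CLCN6 the adjusted slide p was 0.476 in IVS and 0.522 in LV.

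Most of the usual measures of array quality were associated with few or none of these probes in IVS. For the median spot intensity of the array, 0 of 18 probes were associated after adjustment (24.1% of all probes) and 0 of 18 before (37.7%). For the local background, 0 of 18 passed (1.6%) and 1 of 18 before adjustment (22.4%). For the share of outlier spots, 0 of 18 passed (0.0%) and 0 of 18 before (2.56%), and for the spike-in signal 0 of 18 (13.2%) and 1 of 18 before (30.2%). The exception was the share of probes well above background, which ranged from 67% to 80.4% over the IVS arrays. This share was associated with 3 of 18 probes after adjustment (9.77%) and with 12 of 18 before (28.3%), and its residual correlation with CLCN6 was 0.611. Each of these counts is from limma with treatment in the model.

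In LV, 0 of 18 probes passed the adjustment for any of these measures in limma. For median intensity the background over all probes was 7.23%, with 2 of 18 before adjustment (25.9%), and for the spike-in signal it was 6.27%, with 1 of 18 before (22.9%). For the local background (0.0% of all probes after adjustment), 14 of 18 were associated before adjustment, all positively, against 8.74%. As the set varied together in LV, these are not 14 independent results. For the share of outlier spots (0.0%) 6 of 18 were associated before adjustment, against 6.38%, and for the share well above background (0.0%) 1 of 18, against 2.53%. The residual correlation of CLCN6 with the LV local background was 0.556, and in IVS it was 0.219.

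Of the 6 measures taken per array, the one that followed the set most closely in IVS came from spots that measure no gene. Each array carries 14 corner control spots, which the scanner software uses to find the grid and whose sequence the files do not give, and their log2 intensity over the array median was taken as 1 value per array. This measure was added after the data had been seen. In IVS the set was selected to follow CLCN6, so its counts there largely repeat the correlation of CLCN6 with these spots and are not separate results. All 18 IVS probes rose with it at an unadjusted p under 0.05 in limma with treatment in the model, against 4.03% of all probes, and 13 of 18 passed the adjustment, against 0.233% (21 of 9001). In LV, 16 of 18 rose with it, against 4.10%, and 5 of 18 passed, against 0.136% (12 of 8807). The probes of the set also varied together in LV (median r of pairs 0.752), so these LV counts are not separate results either. The corner spots of all arrays were below saturation.

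The slopes were positive for 18 of 18 probes in IVS and for 17 of 18 in LV, where A_70_P027986 was the exception. The median slope was 0.93 log2 per log2 of corner intensity in IVS (0.20 to 1.70) and 1.19 in LV (-0.17 to 1.95). For CLCN6 it was 1.70 in IVS and 1.82 in LV. The residual correlation of CLCN6 with the corner spots over 16 arrays was 0.903 in IVS (Spearman's rho 0.821, permutation p = 1e-05, the smallest that 100000 draws can give). Without Control lambs 3 and 8, the arrays farthest from the median, it was 0.824. In LV it was 0.764 (rho 0.724, permutation p = 0.00164), and 0.599 without CORT lambs 1 and 8 (permutation p = 0.0289).

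LSR behaved like CLCN6 against the corner spots. Its correlation was 0.861 in IVS (rho 0.818, permutation p = 5e-05) and 0.77 without Control lambs 3 and 8. In LV it was 0.786 (rho 0.829, permutation p = 0.00057) and 0.741 without CORT lambs 1 and 8. Of these 4 correlations, each with Pearson's and Spearman's coefficient, all had Benjamini-Hochberg adjusted permutation p-values of 0.00361 or less. The corner spots were taken up after the data had been seen, and this adjustment does not cover the other array measures. LSR and CLCN6 had an r of 0.925 in IVS, so their correlations with the corner spots are not separate results.

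**Figure D4:**
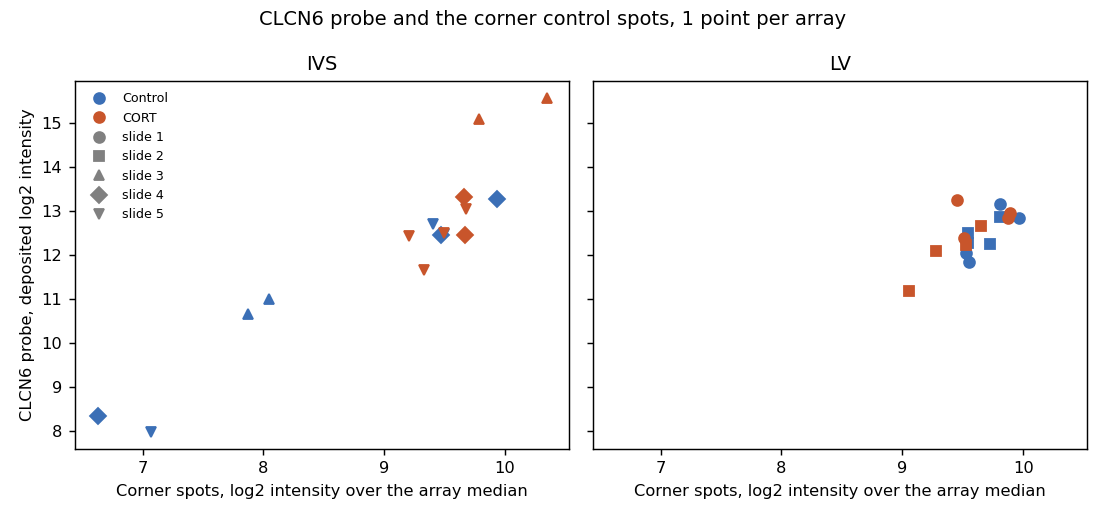
CLCN6 log2 level (vertical axis) against the log2 intensity of the corner control spots over the array median (horizontal axis), 1 point per array, by treatment and slide, for IVS and LV. In IVS, Control lambs 3 and 8 lie at the lower left (corner values 6.63 and 7.07) and CORT lamb 1 at the upper right (10.35), and the LV arrays span 9.05 to 9.96.

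The corner spots themselves differed between the IVS groups. They ran from 6.63 over 8.73 to 9.93 in Control IVS and from 9.21 over 9.67 to 10.35 in CORT IVS. Control lambs 3, 8, 2 and 1 lay below all CORT lambs, and the other Control lambs overlapped with them. The difference was 1.16 log2 (exact permutation p = 0.03, two-sided, adjusted p = 0.36 over 12 comparisons of 6 measures in both tissues). In LV it was -0.15 (exact permutation p = 0.207). With the corner spots as a covariate, a model chosen after seeing the data, 0 of 18 probes differed between CORT and Control IVS at an unadjusted p under 0.05 in limma, where 48 of all 9001 did. The median CORT difference of the set was then 0.00, with 9 probes above and 9 below 0 (-0.14 to 0.25). Whether the corner intensity has a part in the CORT difference, or both follow something else about the array or the RNA, was not tested.

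The C-rich window also went with this behaviour outside the set. Among the 74 other IVS probes that had it, the median r with CLCN6 was 0.49 and 37 (50%) had an r above 0.5, whereas for the 4484 probes with fewer than 5 C in any 10 bases the median was -0.08 and 1.52% passed 0.5. Probes with 7 C lay between (0.166). In LV the 73 probes with the window had a median r of 0.337 with CLCN6, and 26 (35.6%) passed 0.5, against -0.09 and 3.87%. Of these non-member probes, 15 (20.3%) rose with the corner spots in IVS and 27 (37.0%) in LV at an unadjusted p under 0.05 in limma, against 2.92% and 2.49% of the probes with fewer than 5 C and 4.03% and 4.10% of all probes. Those higher in CORT IVS were 5 of the 74 (6.76%), against 0.714% with fewer than 5 C and 1.17% of all probes, and in LV 0 of 73 were higher in CORT lambs at an unadjusted p under 0.05, with 1 lower.

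Within the set, the 13 probes with the window had a median corner slope of 1.02 in IVS and 1.20 in LV. The 5 without it had 0.66 and 1.18, and these included CLCN6, the steepest of all in IVS. The window therefore did not divide the set by its response to the corner spots in LV.

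**Figure D5:**
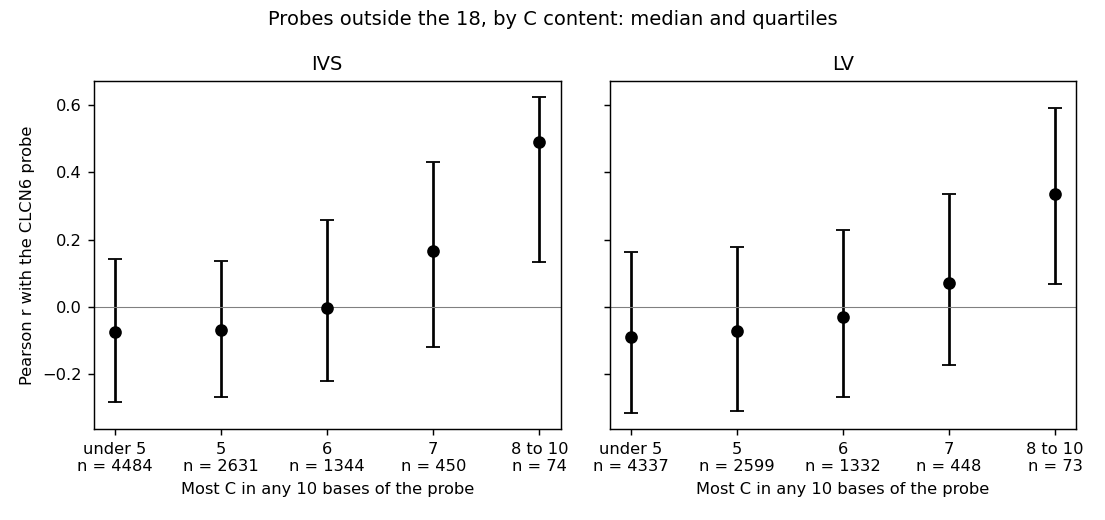
Median and quartiles (vertical axis) of the residual correlation with CLCN6 for probes outside the set, by the largest number of C in any 10 bases of the probe (horizontal axis), in IVS and LV. The median rises from -0.08 (fewer than 5 C) to 0.49 (8 or more) in IVS and from -0.09 to 0.34 in LV.

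Few markers of cell types in the heart could be read. Of 53 markers listed, 15 had a named probe (26 probes in each matrix), and the correlation of these probes with CLCN6 ran from -0.51 to 0.44 in IVS and from -0.54 to 0.491 in LV. The cardiomyocyte genes MB, for myoglobin, and PLN, the inhibitor of the sarcoplasmic calcium pump, were well above background on all arrays of both tissues. In bulk tissue, fewer cells of a type and less RNA per cell cannot be told apart. Between CORT and Control IVS, 2 of the 26 marker probes differed at an unadjusted p under 0.05 in limma (3.36% of all probes did), with differences of -0.37 log2 for PLN and 0.30 for the adipocyte gene FABP4. The MB probes differed by 0.08 and 0.09, and the other adipocyte probes by -0.17 (LPL) to 0.13 (PLIN1). In LV 3 of 26 did (3.74% of all probes), with differences of -0.29 and -0.27 for the probes of the collagen gene COL3A1 and -0.19 for CD14, a monocyte receptor. The probes of DCN, the other fibroblast gene read, differed by 0.10 and 0.02 in LV. The other leukocyte probes differed there by -0.47 (LYZ) to 0.52 (CD3E). The erythrocyte marker HBB had an r of 0.308 and 0.379 with CLCN6 on its 2 IVS probes. No epithelial marker had a named probe, which matters for LSR and NAPSA, known from epithelia.

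Few genes near CLCN6 or LSR in function could be read. Of 11 genes listed for the CLC family of chloride channels and transporters, CLCN6 alone had a named probe, and of 12 listed for lipoprotein uptake, LSR and LPL had one. LPL, which releases fatty acids from lipoproteins, differed by -0.07 and -0.17 between CORT and Control IVS on its 2 probes (limma adjusted p = 0.982 and 0.971). DGAT2, which completes triglyceride synthesis, was 1.39 log2 higher in CORT IVS (SE 0.39, limma adjusted p = 0.971), yet its residual correlation with CLCN6 was 0.014, and the 2 probes of DGAT1, which catalyses the same step, differed by 0.09 and 0.07. Of 12 early stress response genes listed, 5 had a named probe, and 0 of their 9 IVS probes differed at an unadjusted p under 0.05 in limma, against 3.36%. Most symbols of the set could be traced because the study lists those genes as different in IVS, so the share of named probes is not independent of the CORT difference.

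The tissues of one lamb could not be used as repeat readings. Numbers in the labels run from 1 to 8 in each group of both tissues. The deviations of same-numbered IVS and LV samples over 8662 shared probes correlated between -0.22 and 0.651. Of these correlations, 7 of 16 were above 0.1 and 6 of 16 were highest with their own number. The counts were not set against a chance level and do not settle whether same-numbered samples share a lamb. The correlations of CLCN6 and LSR that follow rest on that pairing. For CLCN6 the correlation between same-numbered IVS and LV samples was 0.11 (rho 0.206, permutation p = 0.672), and for LSR 0.017 (rho 0.106, permutation p = 0.951), with adjusted p-values of 0.943 and 0.951.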

How the data were processed

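The authors read the array scans with the software Agilent Feature Extraction 10.1.1.1. They deposited each array's scanner output, whose spot values are intensities, and 1 matrix of log2 levels per tissue. Per the study's methods the log2 levels were background corrected and quantile normalized in limma, and dim and control probes were left out. The labels and the methods differ on the dye and the amount of RNA labelled. The deposited log2 matrices were used as given. The median spot intensity of an array ran from 131 to 332 in IVS and from 139 to 217 in LV, and the number of arrays limits the precision. Replicates are separate lambs, but the study's methods give a pair of twins in each group of ewes, so that 2 of the 8 Control lambs share a ewe. The labels do not say which samples these are or whether the CORT arrays include twins, and the tests take all lambs as independent. Every column of per-sample values was used (0 left out), and no columns of the authors' own comparisons were used.

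Probes were fitted with limma 3.58.1 (lmFit and eBayes, R 4.3.3) over all probes of a matrix, two-sided, with Benjamini-Hochberg adjustment over all of them. Calls were counted both before adjustment (p under 0.05, the criterion of the study's methods) and after it. Slide, array quality and corner spot models held treatment as a term. The treatment by tissue test used normexp (offset 50) and quantile normalization of all 32 arrays. Correlations were tested with 100000 permutations within treatment (scipy 1.17.1). The fits were tested on simulated data with known differences. Alternatives covered the normalization, filter on dim probes, blocks, array weights, the r threshold and leaving out each array.

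A symbol came from the scanner files through a reference table of 35057 genes (1244 probes), or, for genes the study lists for IVS, from the only probe whose fold and p lay within 0.0051 and 5.5e-05 of the listed ones (232 of 255 genes). With the listed p moved on purpose, 4 of the 255 genes (1.57%) still found a probe. Among the set, the CXCL1 probes alone were named from the files, and A_70_P039396 is listed by the study under CXCL2. Named here are all probes of the set, the probes just outside the threshold and examples from lists of cell type markers, CLC family, lipoprotein uptake, triglyceride synthesis and early stress genes. The set, the lists and the tests were chosen with earlier results of these data known.

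The replicate numbers shared by Control and CORT samples were checked over all probes. Deviations of same-numbered samples correlated above 0.1 in 5 of 8 pairs in IVS and 4 of 8 in LV. Many same-numbered samples also share a slide, which these correlations do not separate from pairing. The correlation was highest with the own number in 1 of 8 pairs in IVS and 2 of 8 in LV, and the numbers were not taken as pairs. Labels do not say whether same-numbered IVS and LV samples are from 1 lamb.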

Additional observations from a re-analysis of the deposited data

Results flagged for a closer look

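In 76 checks of a highest or lowest sample in a group of 8 lambs (the 18 probes and the corner spots, in both treatments and tissues), 5 samples stood apart from their group by a gap of more than 0.526 of the group's range, where chance flags about 1 in 20 groups. CORT lamb 1 was the highest in IVS for GPC1, with a gap of 0.746 of the range, for FIZ1 (0.712) and for SPHK1 (0.605). In LV, CORT lamb 6 was the highest for C19orf61 (0.638) and CORT lamb 1 for RNF126 (0.586). In data outside the gene probes, the corner control spots over the array median were 1.16 log2 higher in CORT than in Control IVS (exact permutation p = 0.03, adjusted p = 0.36).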

How the results depend on the processing

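Over all 18 probes, the IVS difference between CORT and Control lambs was positive in 495 of 504 recomputed values. The 9 others came from the model with the corner spots as a covariate, added after seeing the data: CLASP1 -0.049, TM9SF2 -0.024, LSM14A -0.14, KIAA1826 -0.11, CXCL1 probe A_70_P039396 -0.054, A_70_P029846 -0.034, NAPSA -0.10, GPC1 -0.014 and A_70_P027986 -0.10. The count of 14 probes higher in CORT IVS became 0 with array weights, 0 with the corner covariate, 0 without slide 3 and 2 without Control lambs 3 and 8. Leaving out 1 array gave 10 to 17. It was 16 with slide as a block and 16 with the replicate block, although the numbers were not taken as pairs.

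The number of probes in the set varied more. It was 39 from processed signals over the 75th percentile, 69 after centring on treatment and slide, 43 at an r above 0.7 and 8 above 0.9. It held 87 probes without Control lambs 3 and 8, 393 without these and CORT lambs 1 and 2, and 84 without slide 3, where the 17 other probes kept an r above 0.8. Leaving out 1 array gave 15 to 97, with 97 without Control lamb 8. Without Control lambs 3 and 8 and CORT lambs 1 and 2, 8 of the 17 other probes had an r above 0.8. The median r of the 17 was then 0.789, and 4.36% of all probes passed 0.8.

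In LV, the count of 2 probes with an r above 0.8 was 1 with normexp and quantile values, 1 without background correction, 1 with Spearman's rho, 1 after centring on treatment and slide, and 5 with processed signals over the 75th percentile. It was 4 above 0.7, 1 above 0.9, and 1 to 4 when 1 array was left out. The count of LV differences was 1 with array weights and 0 to 2 when 1 array was left out. CLCN6 in LV was 0.000294 with processed signals, 0.26 with the corner covariate and -0.13 to 0.16 when 1 array was left out, and LSR in LV was 0.11 with the corner covariate. For the corner spots, adjusted counts were 8 to 17 in IVS and 1 to 10 in LV when 1 array was left out (8 without Control lamb 3), and 1 in LV with slide as a block. Slide counts were 0 to 2 in IVS, IVS array quality counts 1 to 6, LV array quality counts 0 to 1, and treatment by tissue counts 13 to 17. Correlations of same-numbered samples were -0.0072 to 0.216 for CLCN6 and -0.15 to 0.177 for LSR. The causes of these changes were not tested.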
